A study of Mus musculus with 2 samples.

Results

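Chaperone and chaperonin genes were taken as the mouse protein-coding genes whose symbols mark the main families of heat shock proteins (HSPs), and a list of Usp16 ChIP peaks was searched at their ends. The rule took symbols that start with Dnaja, Dnajb, Dnajc, Hspa, Hspb, Hspd, Hspe, Hsph or Hsp90, symbols of Cct followed by a digit, and Tcp1. It found 84 of the 21883 protein-coding genes on the assembled nuclear chromosomes. They comprised 45 HSP40 genes (Dnaja, Dnajb and Dnajc), 14 HSP70 genes (Hspa and Hsph), 3 HSP90 genes, 8 small HSP genes (Hspb and a digit) and 12 chaperonin genes (Hspd1, Hspe1, Tcp1 and the Cct genes). The other 2, Hspbp1 and Hspbap1, match the rule by their letters and encode no small HSP.

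Chromatin was immunoprecipitated with anti-Usp16 for one library and with IgG for the other. Usp16 is an enzyme that removes ubiquitin from histone H2A. Both used bone marrow cells positive for c-Kit and Sca-1, a sort that enriches blood stem and progenitor cells, from Mx1 Cre:Usp16loxp/loxp mice. Mx1-Cre is a recombinase under an interferon-inducible promoter, and the labels do not say whether it had been induced, so whether the cells held Usp16 is not given. With 1 library for each antibody and no replicate of either, no test was possible, and every share below describes 1 list of peaks with exact Clopper-Pearson 95% intervals that cover counting error only.

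The list held 5079 peaks in mm10 coordinates, each with a score given by the authors' peak caller, with a lowest score of 50 and a median of 70.1. Weaker sites are not listed, so a gene without a listed peak is not shown to lack Usp16. The number of reads behind the peaks is unknown, and IgG signal was not analysed here. A gene was counted when a peak overlapped, by at least 1 bp, the stretch within 1 kb of an annotated end on either side (a gene-end peak). Kit and Ly6a, the genes of the sorted surface proteins, had no gene-end peak, and a peak list does not measure their expression.

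Chaperones keep proteins folded. HSP70 proteins bind exposed hydrophobic stretches in cycles of ATP hydrolysis, which J proteins of the HSP40 family start and nucleotide exchange factors end. HSP90 proteins finish the folding of kinases, receptors and other clients, small HSPs hold unfolded proteins without using ATP, and chaperonins enclose a protein in a ring-shaped chamber. Some members are made in every cell, and others are switched on by the transcription factor HSF1 after heat or by the unfolded protein response of the endoplasmic reticulum (ER).

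Promoters of some chaperone genes are shown here, with the 250 bases before the annotated start from RefSeq (GRCm38.p6), 5′ to 3′ on the strand of the gene. Every base shown lay under the gene's listed peak. Capitals mark the motifs named below, and where a motif has N letters these stay in lower case. Dnajc16, Hspa4, Hsp90b1 and Cct7 held the highest-scoring peak at a transcription start in their families among genes with a promoter sequence. Hspa5, Hspa1a, Hspe1 and Cct8 were added after their values were seen, because Hspa5, Hspa1a and Hspe1 carry stress-response motifs and Cct8 neighbours Usp16. For Cct7 and Hspe1 a stretch of 30 bases is given, since the bases before their starts lie within a neighbouring gene.
Dnajc16, chr4:141790645-141790894, minus strand: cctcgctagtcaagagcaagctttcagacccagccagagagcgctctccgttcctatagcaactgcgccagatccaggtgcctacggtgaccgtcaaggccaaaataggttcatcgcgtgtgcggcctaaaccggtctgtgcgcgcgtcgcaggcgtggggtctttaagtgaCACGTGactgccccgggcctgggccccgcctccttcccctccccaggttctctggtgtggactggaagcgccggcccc
Hspa4, chr11:53300480-53300729, minus strand: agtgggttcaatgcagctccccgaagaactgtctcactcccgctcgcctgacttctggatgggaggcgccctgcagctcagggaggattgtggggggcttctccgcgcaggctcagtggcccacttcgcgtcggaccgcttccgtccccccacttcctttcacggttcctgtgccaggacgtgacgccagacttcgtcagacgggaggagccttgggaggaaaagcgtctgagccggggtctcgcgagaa
Hspa5, chr2:34771840-34772089, plus strand: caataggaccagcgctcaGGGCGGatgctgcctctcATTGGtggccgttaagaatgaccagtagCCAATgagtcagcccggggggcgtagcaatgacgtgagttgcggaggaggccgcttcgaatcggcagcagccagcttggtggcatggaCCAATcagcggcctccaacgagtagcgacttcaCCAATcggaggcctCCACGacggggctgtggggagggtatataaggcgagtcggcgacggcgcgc
Hspa1a, chr17:34972157-34972406, minus strand: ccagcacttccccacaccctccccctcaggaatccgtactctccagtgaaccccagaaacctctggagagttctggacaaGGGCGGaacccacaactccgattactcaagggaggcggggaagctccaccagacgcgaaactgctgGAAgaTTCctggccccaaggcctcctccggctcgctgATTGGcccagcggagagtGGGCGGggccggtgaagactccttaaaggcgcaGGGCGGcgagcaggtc
Hsp90b1, chr10:86705445-86705694, minus strand: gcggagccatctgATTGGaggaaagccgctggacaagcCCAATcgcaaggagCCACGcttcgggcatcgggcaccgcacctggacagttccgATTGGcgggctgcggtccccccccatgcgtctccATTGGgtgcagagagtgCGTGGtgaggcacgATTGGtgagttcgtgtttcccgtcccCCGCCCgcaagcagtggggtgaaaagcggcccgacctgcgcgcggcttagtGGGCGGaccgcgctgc
Cct7, chr6:85451401-85451430, plus strand: cgggcgctgATTGGccaaaactcttaatag
Cct8, chr16:87495870-87496119, minus strand: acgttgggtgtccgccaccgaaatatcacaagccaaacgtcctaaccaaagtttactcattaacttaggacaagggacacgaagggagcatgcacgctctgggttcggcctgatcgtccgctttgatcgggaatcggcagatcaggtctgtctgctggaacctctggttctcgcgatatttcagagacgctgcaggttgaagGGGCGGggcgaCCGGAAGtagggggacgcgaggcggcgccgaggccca
Hspe1, chr1:55088053-55088082, plus strand: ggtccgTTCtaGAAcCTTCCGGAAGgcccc

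The first question was which of these genes carried a peak. A gene-end peak was listed for 26 of the 84 chaperone genes (31.0%, interval 21.3 to 42.0%), against 3032 of all 21883 protein-coding genes, or 13.9%. The families are given in turn, and differences between them were not tested. All 3 HSP90 genes carried a peak (interval 29.2 to 100%), as did 7 of 12 chaperonin genes (58.3%, 27.7 to 84.8%) and 7 of 14 HSP70 genes (50%, 23.0 to 77.0%). The 7 chaperonin genes were counted through 6 peaks, and so were the 7 HSP70 genes. Genes that share a peak are not independent, and the intervals do not allow for this. The HSP40 genes stood close to the share of all coding genes, with 8 of 45 (17.8%, 8.0 to 32.1%). No small HSP gene of 8 carried one, which allows a share of up to 36.9%. The intervals of the HSP40 and small HSP families include the share of all coding genes, and the intervals of all 5 families overlap each other.

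**Figure D1:**
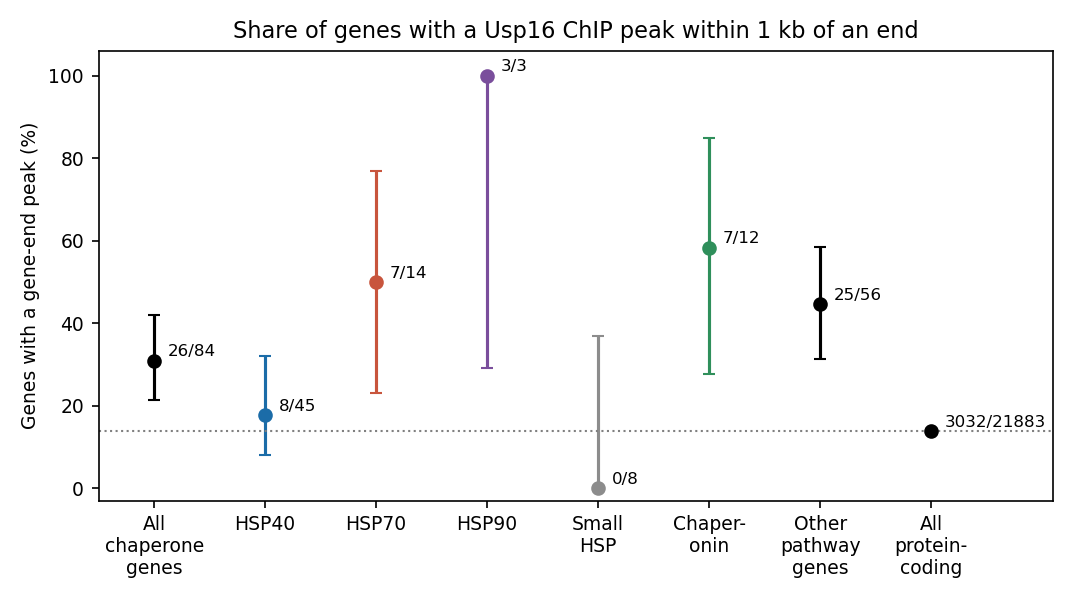
Share of genes with a gene-end peak (y axis, percent) in all chaperone genes, in each family, in the other genes of the folding pathway described below and in all protein-coding genes. Points are shares with the counts beside them, bars are exact 95% intervals, and the dotted line marks all protein-coding genes at 13.9%; HSP70, HSP90 and chaperonin genes lie above it, and HSP40 genes near it.

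Part of these counts rested on low-scoring or shared peaks, as was the case for all coding genes. With the peaks at or above the median score, 13 chaperone genes remained (15.5%, against 7.99% of all coding genes), of which 5 were chaperonin genes (41.7%), 2 were HSP70 genes (14.3%), 1 was an HSP90 gene (33.3%) and 5 were HSP40 genes (11.1%). Without peaks at ends of 2 or more coding genes, 14 chaperone genes remained (16.7%, against 8.41%), of which 5 were HSP70 genes (35.7%), 2 were chaperonin genes (16.7%), 4 were HSP40 genes (8.89%) and 2 were HSP90 genes (66.7%).

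The 3 HSP90 genes showed wide peaks of low to middling score. Hsp90ab1 (chromosome 17, 45567778 to 45573261), the constitutive cytosolic form, had a peak of score 89.6 and 2052 bp (45572186 to 45574237), which also reached the lncRNA gene Gm35399. Hsp90aa1 (chromosome 12, 110691036 to 110696395), the stress-inducible cytosolic form, had one of score 65.3 and 1327 bp (110695587 to 110696913). Hsp90b1 (chromosome 10, 86690841 to 86705444) encodes GRP94, the form in the ER, and had a peak of score 61.5 and 1726 bp (86705047 to 86706772) that also reached the end of Ttc41. Of the 3 scores, 2 lay below the median of the list.

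Of the 14 HSP70 genes, 7 carried a peak and 7 did not. Hspa4, an HSP110-type protein that exchanges nucleotides on HSP70, had the highest score of the family, at 162.4 (chromosome 11, 53300216 to 53301031, 816 bp). It was followed by Hspa9, the mitochondrial form mortalin, at 82.6 (chromosome 18, 34953953 to 34955520, 1568 bp), and Hspa5, the ER form BiP, at 70.1 (chromosome 2, 34771296 to 34773208, 1913 bp). Hspa8, the constitutive cytosolic form Hsc70, had a peak of score 69.4, and Hspa13, an HSP70-like protein of the ER, had one of 54.4. The 5 peaks of these genes reached no other annotated gene.

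The stress-inducible Hspa1a and its neighbour Hspa1l, which is best known from testis, were counted through 1 peak of score 53.4 on chromosome 17 (34971702 to 34972584). This peak covered the start of Hspa1a, with its midpoint 13 bp inside the gene, and ended 119 bp before the start of Hspa1l. Hspa1b, a near-identical copy of Hspa1a, had no gene-end peak, and the nearest peak edge lay 3191 bp from one of its ends. The 300 bases around the starts of Hspa1a and Hspa1b are identical at 296 positions (98.7%), with a longest identical run of 201 bases. Reads from one copy can be placed on the other, so the difference between Hspa1a and Hspa1b is uncertain. No gene-end peak was listed for Hspa12a, Hspa12b, Hspa14, Hspa2, Hspa4l or Hsph1 either.

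Of the HSP40 genes, 1 of 4 Dnaja, 3 of 13 Dnajb and 4 of 28 Dnajc genes carried a peak. The intervals of these shares were 0.63 to 80.6%, 5.04 to 53.8% and 4.03 to 32.7%, in the same order. Each interval includes the share of all coding genes, 13.9%. Dnajc16, a J protein of the ER membrane, had the highest score of all chaperone genes, 253.1, which ranked 130 in the whole list (chromosome 4, 141790460 to 141791164, 705 bp). Dnajb4, a cytosolic partner of HSP70, followed at 166.1 (chromosome 3, 152210062 to 152210798, 737 bp), with a peak that also reached the end of Fubp1. Dnajc24, which takes part in making diphthamide on elongation factor 2, had a score of 133.1 (chromosome 2, 106002937 to 106003563, 627 bp). Dnajc14, an ER membrane protein, stood at 129.4 with a peak of 1820 bp shared with Tmem198b.

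The other 4 HSP40 peaks scored lower. Dnajc7, which binds both HSP70 and HSP90, had a score of 80.1 in a peak shared with Nkiras2, and Dnaja1, a partner of cytosolic HSP70, had 69.8. The Dnaja1 peak was the widest of all chaperone genes, at 2179 bp, and reached the ends of Aptx, the lncRNA gene Gm6297 and the microRNA gene Mir207. Dnajb9, an ER partner of BiP, had 66.5 in a peak that also reached Mir5627, and Dnajb12, an ER membrane protein in protein degradation, had 56.5. Among the 37 HSP40 genes without a gene-end peak were Dnaja2, Dnaja3, Dnaja4 and Dnajb1, the last of which encodes the main heat-inducible J protein.

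Both genes of the mitochondrial chaperonin and 5 of 10 genes of the cytosolic one were counted. Hspd1 (HSP60) and Hspe1 (HSP10), the ring and the lid of the mitochondrial chamber, start in opposite directions on chromosome 1 and share 1 peak (55087461 to 55088677, 1217 bp). Its score of 52.2 was the lowest of all chaperone peaks. In the cytosolic chaperonin CCT, which folds actin and tubulin, Cct7 had a score of 184.0 (chromosome 6, 85451244 to 85452461, 1218 bp), in a peak shared with Pradc1. Cct8 had 165.2 (chromosome 16, 87495630 to 87496380, 751 bp), in a peak shared with the lncRNA gene B130034C11Rik, and Cct6a had 151.8 (chromosome 5, 129786676 to 129787743, 1068 bp), in a peak shared with Psph.

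Cct5 scored 75.04, in a peak shared with Atpsckmt, and Cct4 scored 70.4. No gene-end peak was listed for Tcp1, Cct2 and Cct3, which encode subunits of the same ring, nor for Cct6b, a testis form of Cct6a, and the Cct8-like gene Cct8l1. The ring is built from 8 subunits, whose genes are the group without Cct6b and Cct8l1, and 5 of these carried a peak. Cct8 (87483325 to 87495869) neighbours Usp16 itself (87454985 to 87483515): the annotated genes overlap by 191 bp at the end of Cct8 that lies away from its peak. Usp16 had no gene-end peak.

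None of the 8 small HSP genes, Hspb1, Hspb2, Hspb3, Hspb6, Hspb7, Hspb8, Hspb9 and Hspb11, had a gene-end peak. The nearest peak edges lay between 15547 bp (Hspb2) and 153305 bp (Hspb8) from an end of these genes. Hspb1, which encodes the widely expressed HSP27, had its nearest peak edge at 44386 bp. Hspb11 encodes a protein now counted among those of intraflagellar transport. Of the 2 genes of no family, Hspbp1, a nucleotide exchange factor of HSP70, carried a peak of score 66.4 over its 5′ end, and Hspbap1 carried none. A further peak, of score 69.7, was counted for Hspbp1 though it lay 797 bp beyond the 3′ end, and it also reached an end of Ppp6r1.

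Of the 58 chaperone genes without a gene-end peak, 54 had their nearest peak edge more than 10 kb from either end (93.1%), against 90.0% of all coding genes without one. The median distance was 62.6 kb, against 112.9 kb for all coding genes without one. The closest was Dnajc2, a ribosome-associated J protein, with a peak edge at 1184 bp, followed by Hspa1b and by Dnajc9, a histone chaperone, at 4374 bp. A peak over the gene but away from its ends was found in 2 of the 58, Dnajc5b and Hspa12a. The matching share of all coding genes is not given here, so this count is a description only.

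A second question was where along these genes the peaks lay. The strand was known for the 69 chaperone genes with a RefSeq promoter entry. The start was taken here as the outermost annotated end of the gene on its 5′ side. Of these, 20 carried a peak at the 5′ end (29.0%, interval 18.7 to 41.2%), against 13.4% of all coding genes of known strand. At the 3′ end 1 did, Hspbp1 (1.45%, interval 0.04 to 7.81%), against 1.65% of all coding genes. The start base itself lay under the peak in 18 of the 20 pairs of a gene and a 5′ peak (90.0%), against 85.3% over all coding genes. The exceptions were Hspa1l and Dnajc7, whose peak began 53 bp inside the gene and covered another annotated start of it. Midpoints of the 20 pairs lay between -560 bp (before the start) and 507 bp (inside the gene), with a median of 33.3 bp, against a median of -10.5 bp over all coding genes. The promoter entry starts further inside the gene at Dnajb4 (349 bp), Dnajc14 (650 bp), Dnajc7 (665 bp) and Hspbp1 (207 bp). The sign of the chaperone median therefore depends on the start used.

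**Figure D2:**
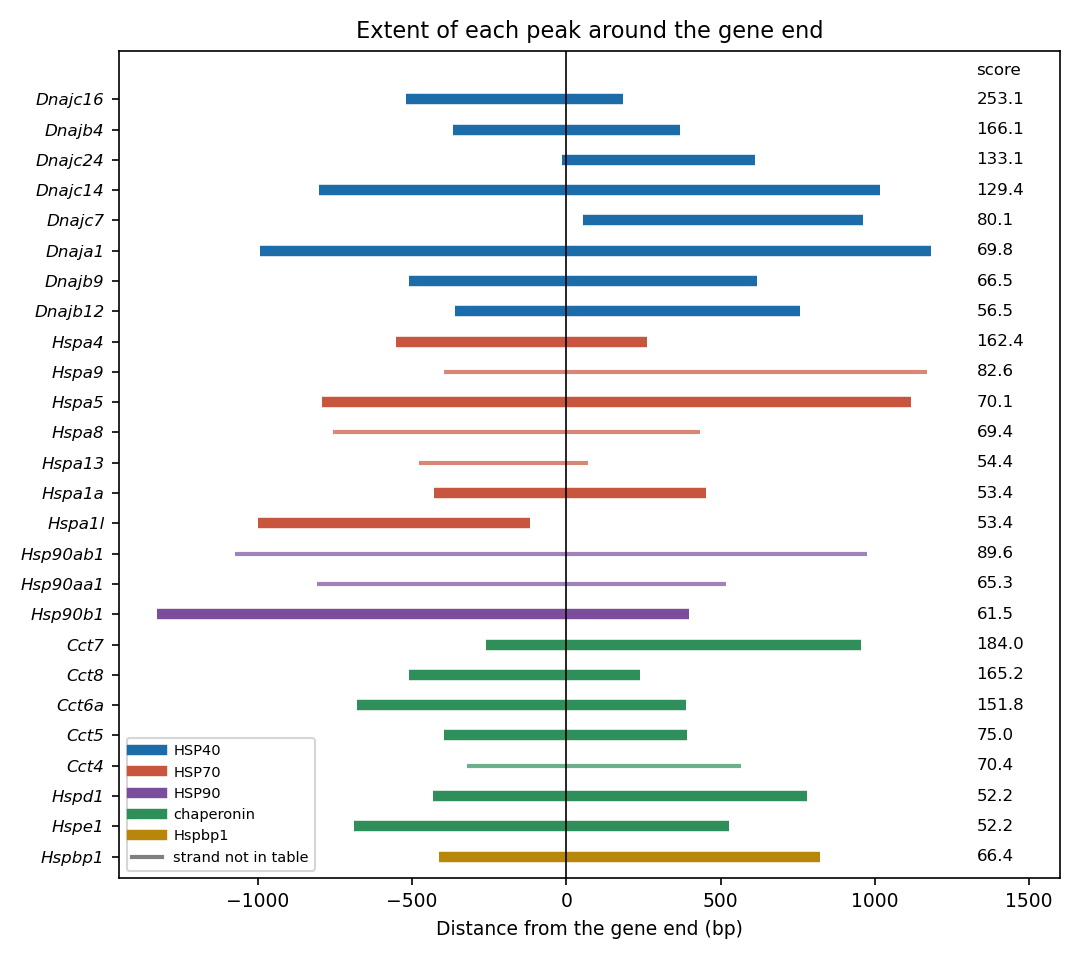
Extent of each listed peak around the gene end it reached (x axis, bp from that end, negative before the gene and positive inside it for thick bars), 1 row per gene, grouped and coloured by family, with the peak's score at the right. Thin bars are genes whose strand is not in the table used, drawn in chromosome direction, and the 3′ peak of Hspbp1 is left out; the bars cross the gene end in every row but those of Dnajc7 and Hspa1l.

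The third question was how strong and how wide the peaks were. The 26 genes were counted through 25 distinct peaks. Their median score was 70.4 (quartiles 66.4 and 133.1), against 74.4 (59.9 and 105.9) for 2440 peaks at ends of other coding genes. Their median width was 1125 bp (quartiles 816 and 1327), against 786 bp (633.75 and 1009) for the other gene-end peaks. A width above 1000 bp was found in 15 of the 25 (60%), against 25.7% of the others. Peaks wider than the upper quartile of the others with a score below their median made up 10 of the 25 (40%), against 11.6%. These 10 lay at Dnaja1, Dnajb9, Dnajb12, Hspa5, Hspa8, Hsp90aa1, Hsp90b1, the shared start of Hspd1 and Hspe1, the 5′ end of Hspbp1, and 797 bp beyond its 3′ end. These differences were not tested, and the combination of width and score was not among the measures planned at the outset. By family the median width was 1726 bp for HSP90, 1038.5 bp for HSP70, 1014.5 bp for HSP40 and 978.5 bp for chaperonin peaks, and the median score was 65.3, 69.7, 104.7 and 113.4 in the same order.

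**Figure D3:**
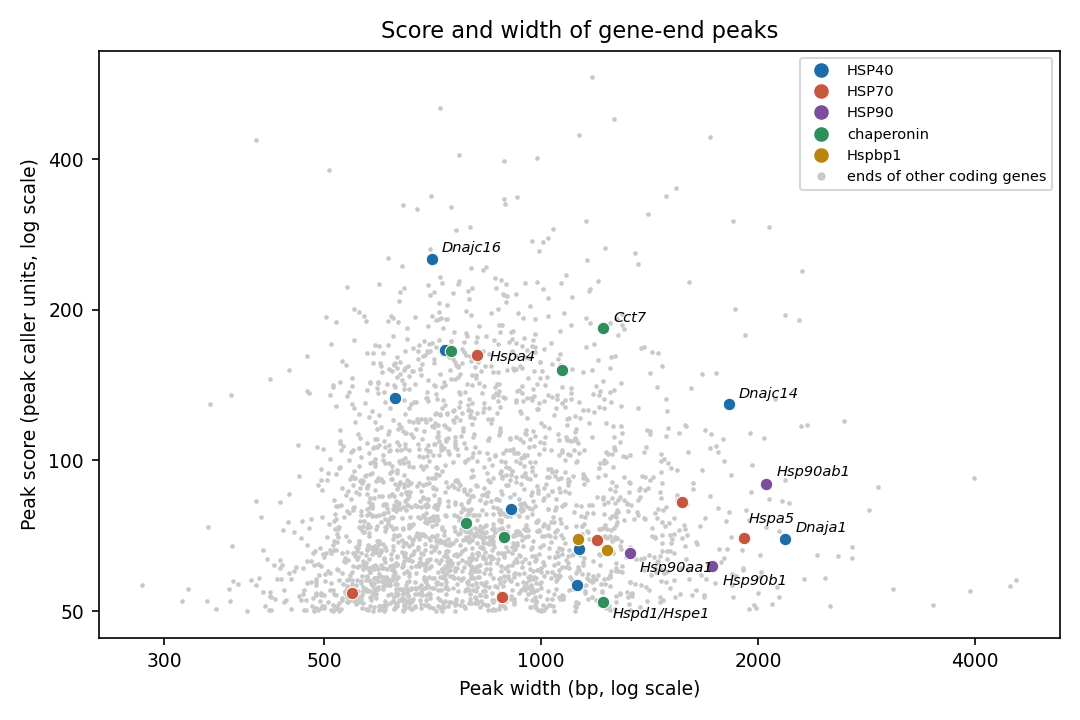
Score (y axis, peak caller units, log scale) against width (x axis, bp, log scale) of gene-end peaks, with 25 chaperone peaks coloured by family and 2440 peaks at ends of other coding genes in grey. Dnajc16, Cct7 and Hspa4 are among the higher-scoring chaperone peaks, and Dnaja1, Hspa5 and the HSP90 genes among the wide ones of lower score.

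Many chaperone peaks were shared with a neighbour. Of the 25 peaks, 11 also reached an end of another coding gene (44.0%), against 24.7% of the other gene-end peaks, and 11 reached no other gene of any kind. In 2 cases the partner was itself a chaperone gene, Hspe1 beside Hspd1 and Hspa1l beside Hspa1a. A peak at ends of several coding genes can enter the chaperone set through any of them, so 44.0% and 24.7% are not counted alike. Counted by gene, the share of chaperone genes was 31.0% with all peaks and 16.7% without peaks at ends of 2 or more coding genes. For all coding genes it was 13.9% and 8.41%. An end of another coding gene lay within 1 kb for 50% of the chaperone genes with a peak, against 47.2% of all coding genes with a peak. Among genes without a peak it did so for 34.5% of chaperone genes, against 21.2% of coding genes. In a shared peak the signal cannot be given to 1 of the genes. The median gene length was 12.6 kb for chaperone genes with a peak, against 18.1 kb for all coding genes with one, and 19.1 kb for chaperone genes without, against 17.0 kb for coding genes without.

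The promoters of chaperone genes were rich in CpG. In the 300 bases from 250 before the start to 50 after it, the median number of CpG was 27.5 in the 20 promoters of chaperone genes with a peak, 20 in the 49 of those without, 21.0 in the promoters of all coding genes with a peak and 13.0 over all 17491 coding promoters. The ratio of observed to expected CpG had medians of 0.89, 0.80, 0.80 and 0.58 in these sets. In a split chosen after seeing the data, a peak was listed for 17 of the 53 chaperone genes with a ratio of at least 0.6 (32.1%, interval 19.9 to 46.3%), against 24.2% of the coding genes with such promoters. The interval includes this share. Below that ratio 3 of 16 chaperone genes carried a peak (18.8%, 4.05 to 45.6%), against 5.33% of coding genes. This interval also includes the share of coding genes. Those 3 were Hspa1a and Hspa1l, counted through 1 peak, and Dnajc24. Of the 7 small HSP genes with a promoter entry, 5 had a ratio below 0.6, and the part of base composition in the families' shares was not tested.

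**Figure D4:**
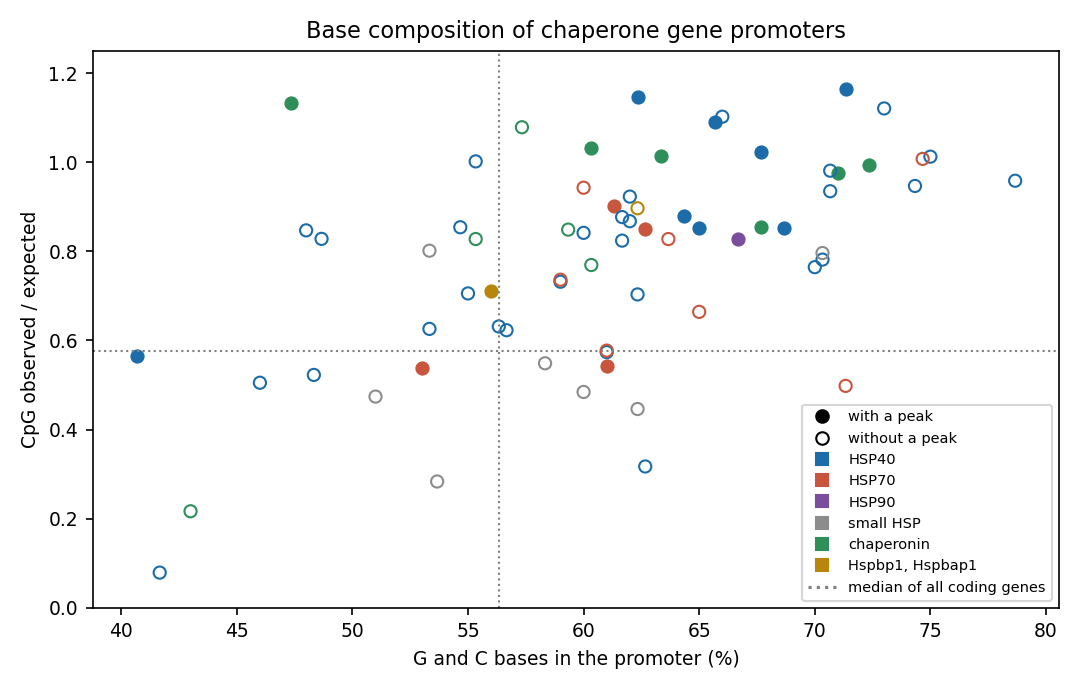
Ratio of observed to expected CpG (y axis) against the share of G and C bases (x axis, percent) in the 300-base promoters of 69 chaperone genes, filled with a peak and open without, coloured by family, with dotted lines at the medians of all coding genes (0.58 and 56.3%). Most filled points lie above both lines, and 5 of the 7 small HSP genes, all open, lie below the CpG line.

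Motifs were searched on both strands of these 300 bases, and a match is a description of letters, not a site. A pair of inverted heat shock units, GAANNTTC, was found in 12 of 69 chaperone promoters (17.4%), against 7.35% of all coding promoters. It was in 3 of the 20 promoters with a peak (15.0%; Dnaja1, Hspa1a and Hspe1) and in 9 of the 49 without (18.4%). The pair with a further unit, GAA or TTC in turn, 2 bases away on either side, was in Hspe1 with a peak and in Dnajb6 and Hsph1 without, or 4.35% of chaperone promoters against 0.48% of all. In Hspe1 the units lie at -89 to -72 from the start, overlapping the ETS letters CCGGAAG at -77 to -71, and in Hspa1a the pair lies at -104 to -97.

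The ER stress element, CCAAT followed by 9 bases of any kind and CCACG, was found in 3 of 69 chaperone promoters (4.35%), against 0.16% of all. They were Hspa5 and Hsp90b1 with a peak and Dnajc3, an ER J protein, without. Hspa5 held it at -65 to -47. Hsp90b1 held it at -212 to -194 and, on the other strand, at -107 to -89. Each match contains a CCAAT box, which by itself was as common in chaperone promoters (40.6%) as in all (39.2%).

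Of the other motifs searched, only the GC box was in most chaperone promoters, both with and without a peak. The GC box GGGCGG was found in 80.0% of chaperone promoters with a peak, against 61.9% of all coding promoters with a peak, and in 67.3% of chaperone promoters without one, against 46.3% of all coding promoters. The ETS letters CCGGAAG were as common in chaperone promoters with a peak (25%) as in all coding promoters with one (24.9%), and were found in 18.4% of chaperone promoters without a peak, against 11.9% of all coding promoters. The TATA box TATAAA was in 1 promoter with a peak, that of Dnajc24, and in 2 without (4.35% together), against 7.28% of all coding promoters with a peak and 13.3% of all coding promoters. The E-box CACGTG was in 10.1%, against 7.91%, with a match in Dnajc16 at -78 to -73. The NRF1 motif, GCGCAT followed directly by GCGC, was in Cct5 alone (1.45%, against 1.33%), and the cAMP response element TGACGTCA was in Dnajc27 alone (1.45%, against 2.33%). The printed promoter of Hspa4 held none of these letters.

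Genes that work with these chaperones also carried peaks. Of 56 co-chaperone, prefoldin, protease and heat shock factor genes, 25 had a gene-end peak (44.6%, interval 31.3 to 58.5%), against 13.9% of all coding genes. The share was 25% with the peaks at or above the median score, against 7.99% of all coding genes. Without peaks at ends of 2 or more coding genes it was also 25%, against 8.41%. The highest scores were at Pfdn5 (161.4), a subunit of prefoldin, which hands actin and tubulin to CCT, and Chordc1 (157.8), a partner of HSP90. Pfdn6 (103.5) and the BAG family genes Bag6 (99.98), Bag1 (99.4) and Bag5 (70.3) also had peaks, as did genes of HSP70 partners, namely Dnlz (90.0), St13 (86.6) and the ubiquitin ligase Stub1 (55.1). The prefoldin genes Pfdn1, Pfdn2, Pfdn4 and Vbp1 had no gene-end peak, nor had Bag2, Bag3 and Bag4.

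Trap1, the mitochondrial form of HSP90, had a score of 89.6, and HSP90 partners with a peak were Ttc4 (79.9), Stip1 (57.1), Nudc (56.4) and Ahsa1 (52.9). Peaks were also listed for the ER folding genes Pdia3 (84.8), Calr (66.4) and Serpinh1 (71.4), the mitochondrial genes Clpx (80.8), Clpb (79.5) and Clpp (62.3), and Pdrg1 (65.9) and Pdcl (52.5). The Pdia3 and Calr peaks were 1717 and 1808 bp wide. Genes of the list without a gene-end peak included Canx, Pdia4, Pdia6, Cdc37, Fkbp4 and Ptges3. Unc45a (64.1), a partner of HSP90, and the mitochondrial protease gene Lonp1 (56.6) were counted through peaks beyond their 3′ ends, 447 and 586 bp away, which also reached ends of Rccd1 and Rpl36. Of the 25 peaks of this list, 11 also reached an end of another coding gene, against 24.7% of the peaks at ends of coding genes outside the chaperone set. A peak at ends of several genes can enter this list through any of them, so these shares are not counted alike. Hsf1, the gene of the main heat shock factor, had a peak of score 51.5 shared with Bop1, and Hsf2, Hsf4 and Hsf5 had none.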

How the data were processed

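Usp16 and IgG ChIP libraries were sequenced from sorted mouse bone marrow cells, and 1 list of peaks was analysed. Per the file headers, peak calling was done by the authors in Galaxy with MACS. Bowtie, Picard and mm10 appear in the submitters' processing notes. The sources used here give no tool versions, no MACS settings and no role of IgG in the call. Each peak's deposited score is the caller's own value and was used only within this list. Depth per sample is unknown.

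Starts were converted to 1-based positions. Gene ends, from which 5′ peaks and their offsets were measured, came from a RefSeq table of GRCm38.p6, the assembly named mm10 elsewhere. Strands and promoter sequences came from a RefSeq promoter table of the same build, which matched 69 of the 84 genes. The CpG and motif windows lie around the starts of that promoter table. Those starts can differ from the gene end, by up to 11328 bp in Dnajc6. Overlaps, shares and exact intervals were computed with Python 3.11.15, pandas 2.3.3 and scipy 1.17.1, after the overlap step was tested on simulated peaks. The members, families, other gene list (58 symbols, of which 56 matched) and motifs were chosen with earlier results of these data known, so no test was run. The rule for names took every member with a peak, with positions for the 3 highest-scoring of a family, and members without a peak where a family has few. It also took the promoter of the highest-scoring start peak per family, among genes with a promoter sequence. The alternatives tried changed the score threshold, the window, the overlap, merging, small RNA genes, shared peaks, the sex chromosomes and the end used.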

Additional observations from a re-analysis of the deposited data

How the results depend on the processing

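Under the 10 other settings chosen at the outset the share of chaperone genes with a gene-end peak ranged from 15.5 to 34.5% and lay above that of all coding genes in each. Peaks at or above the median score gave 15.5% for all chaperone genes, 14.3% for HSP70 and 25% for the other pathway genes. The share of all coding genes was then 7.99%. This cut raised the median score of the chaperone peaks to 133.1, by construction since fewer peaks enter. Without peaks at ends of 2 or more coding genes the shares were 16.7% for all chaperone genes, 16.7% for chaperonins and 25% for the other pathway genes. That of all coding genes was then 8.41%. HSP40 ranged from 8.89 to 22.2% and the small HSP genes stayed at 0. The other settings kept each share within its 95% interval, as did the CpG split added after seeing the data (32.1%). In that split the comparison changed as well, since 24.2% of the coding genes with a CpG ratio of at least 0.6 carried a peak. The interval of the chaperone genes in the split, 19.9 to 46.3%, includes this share. No paired analysis was possible because there is 1 library per antibody and 1 list of peaks. Unknown depth limits every absence of a peak.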
